A study of Mus musculus with 6 samples.

Results

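Genes of the integrated stress response and the unfolded protein response were examined in abdominal white adipose tissue (WAT) of hNAG-1 and wild-type (WT) mice. The set holds 38 genes, listed by name: sensors and transcription factors (7), targets of the transcription factor ATF4 (15), chaperones and folding enzymes of the endoplasmic reticulum (ER) (12), and genes of ER-associated degradation (4). Array probes were matched to a member by gene name, with older symbols included, and 67 probes were found. Each member was represented by its brightest probe, and all 38 had a probe among 27670 genes with a probe on the array. All 38 were also among the 21059 genes that entered the test, for which 3 or more of the 6 arrays had to show a signal well above background. For 37 of them the probe was well above background on all 6 arrays, and for Slc7a11 on 1 hNAG-1 array and 2 WT arrays.

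The hNAG-1 mice carried a transgene for human NAG-1, also named GDF15, a secreted protein of the TGF-β superfamily, and the WT mice did not. All mice were females of strain C57/BL6 at 30 wk of age, and each genotype had 6 mice, pooled by 2 into 3 arrays. Per the study's methods the transgenic animals of the array experiment came from a single line, and the transgene is expressed in most tissues, with high expression in white fat. The promoter that drives it is not given in the sources used here. The arrays were single-colour Agilent whole mouse genome arrays, although the study's methods name an Affymetrix array. A signal is given below as log2 of the scanner's processed signal minus the 75th percentile of the same array, so that 0 is the level of that percentile, and a log2 fold change is the mean of the hNAG-1 arrays minus the mean of the WT arrays on this scale. Since each array is a pool, p-values measure the spread between pools of 2 mice.

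When a cell lacks amino acids or its ER is loaded with unfolded protein, kinases such as GCN2 and PERK phosphorylate the translation factor eIF2α. General translation then slows while the mRNA of ATF4 is translated more, and ATF4 turns on genes for amino acid synthesis, amino acid uptake and recovery of translation. The other branches of the unfolded protein response start at IRE1, which splices the mRNA of XBP1, and at ATF6, which is cut to release a transcription factor, and both raise chaperones and degradation factors of the ER. ATF4, ATF6 and IRE1 are controlled largely after transcription, so their mRNA levels are not a reading of their activity. Fat cells secrete large amounts of protein and depend on this folding capacity, and GDF15 itself is a known target of ATF4 and CHOP.

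The 2 branches are read from different promoter elements, and the members' promoters carry these letters to different extents. Promoter windows of 300 bases, with 250 before the transcription start and 50 after it, were available from RefSeq (GRCm38.p6) for 35 of the 38 members, in 38 windows, and not for Aldh1l2, Atf6 and Slc7a5. The letters of the ER stress response element, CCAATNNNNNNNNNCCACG on either strand, stood in the windows of 7 of 12 ER chaperone genes (58.3%), against 0.119% of all 32851 windows in the table. They stood in 1 of 4 genes of ER-associated degradation, in none of 13 ATF4 targets with a window and in none of 6 sensors and factors. The core of the C/EBP-ATF response element, TGATGNAA on either strand, stood in 5 of the 13 ATF4 targets (38.5% of genes, 33.3% of their 15 windows), in Herpud1 of the degradation genes and in none of the 12 chaperones. Of all windows 3.97% held it. No member held both motifs (0 of the 14 with either). A match describes the letters only, and the absence of a match says only that these letters are not in the window.

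The stretches below are shown because they hold the elements by which the chaperone and ATF4 arms are told apart. Capitals mark the motif, each stretch has 12 bases on either side of it, and each reads 5′ to 3′ on the strand of its gene, so that a motif on the opposite strand appears as its reverse complement. The ER stress response element is shown for Hspa5 (chr2:34772013-34772055, plus strand), Hsp90b1 (chr10:86705626-86705668, minus strand), Dnajc3 (chr14:118937815-118937857, plus strand), Pdia6 (chr12:17266479-17266521, plus strand), Creld2 (chr15:88819508-88819550, plus strand) and Syvn1 (chr19:6046520-6046562, plus strand).
Hspa5: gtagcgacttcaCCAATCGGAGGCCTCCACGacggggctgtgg
Hsp90b1: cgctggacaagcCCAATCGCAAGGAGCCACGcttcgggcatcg
Dnajc3: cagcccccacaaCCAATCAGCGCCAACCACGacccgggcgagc
Pdia6: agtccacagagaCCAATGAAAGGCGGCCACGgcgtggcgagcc
Creld2: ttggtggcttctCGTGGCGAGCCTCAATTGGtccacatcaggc
Syvn1: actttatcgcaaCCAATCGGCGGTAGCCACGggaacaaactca
The C/EBP-ATF core is shown for Asns (chr6:7693213-7693244, minus strand), Chac1 (chr2:119351037-119351068, plus strand), Nupr1 (chr7:126625561-126625592, minus strand), Slc7a11 (chr3:50443660-50443691, minus strand) and Herpud1 (chr8:94386305-94386336, plus strand).
Asns: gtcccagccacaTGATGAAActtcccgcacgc
Chac1: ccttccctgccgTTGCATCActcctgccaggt
Nupr1: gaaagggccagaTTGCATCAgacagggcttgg
Slc7a11: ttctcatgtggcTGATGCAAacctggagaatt
Herpud1: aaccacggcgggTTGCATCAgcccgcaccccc
Creld2, Chac1, Nupr1 and Herpud1 hold their motif on the opposite strand. Herpud1 was the only one of the 4 degradation genes with the C/EBP-ATF core in this window, and Syvn1 the only one with the ER stress response element. Psph, which has the largest log2 fold change of the members in the results that follow, held neither.

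**Figure D1:**
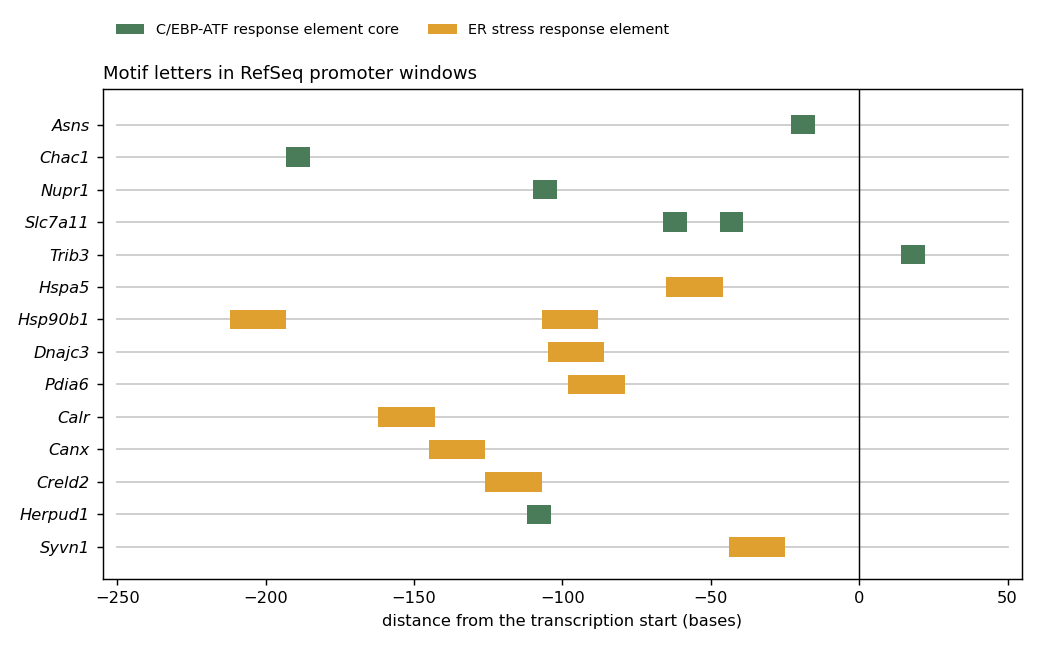
Position of the 2 motifs in the RefSeq promoter windows of the 14 members that hold one (x axis, bases from the transcription start at 0; one line per gene; green, C/EBP-ATF core; orange, ER stress response element). The orange bars lie in 7 chaperone genes and in Syvn1, and the green bars in 5 ATF4 targets and in Herpud1; Hsp90b1 and Slc7a11 hold 2 each.

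No member passed an adjusted p of 0.05 in limma with Benjamini-Hochberg adjustment over all genes, and neither did any other gene (0%). At an unadjusted p under 0.05, 3 of the 38 members (7.89%) were called, against 12.5% of all genes tested, so the members were called no more often than the background. Psph and Asns were higher in hNAG-1 mice (8.45% of all genes) and Herpud1 was lower (4.08% of all genes). The arrays of the genotypes did not overlap for 3 members that were higher in hNAG-1 mice (7.89%, against 13.7% of all genes), namely Psph, Asns and Slc7a1. They did not overlap for 4 that were lower (10.5%, against 6.57% of all genes), namely Herpud1, Shmt2, Sdf2l1 and Edem1. Of the 38 members, 23 had a log2 fold change below 0 (60.5%, against 41% of all genes) and 15 above 0 (39.5%, against 59% of all genes), and the median over the members was -0.15, against 0.063 over all genes. The RNA is from whole tissue, so that fewer cells of a type and less RNA per cell cannot be told apart in any of these differences.

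**Figure D2:**
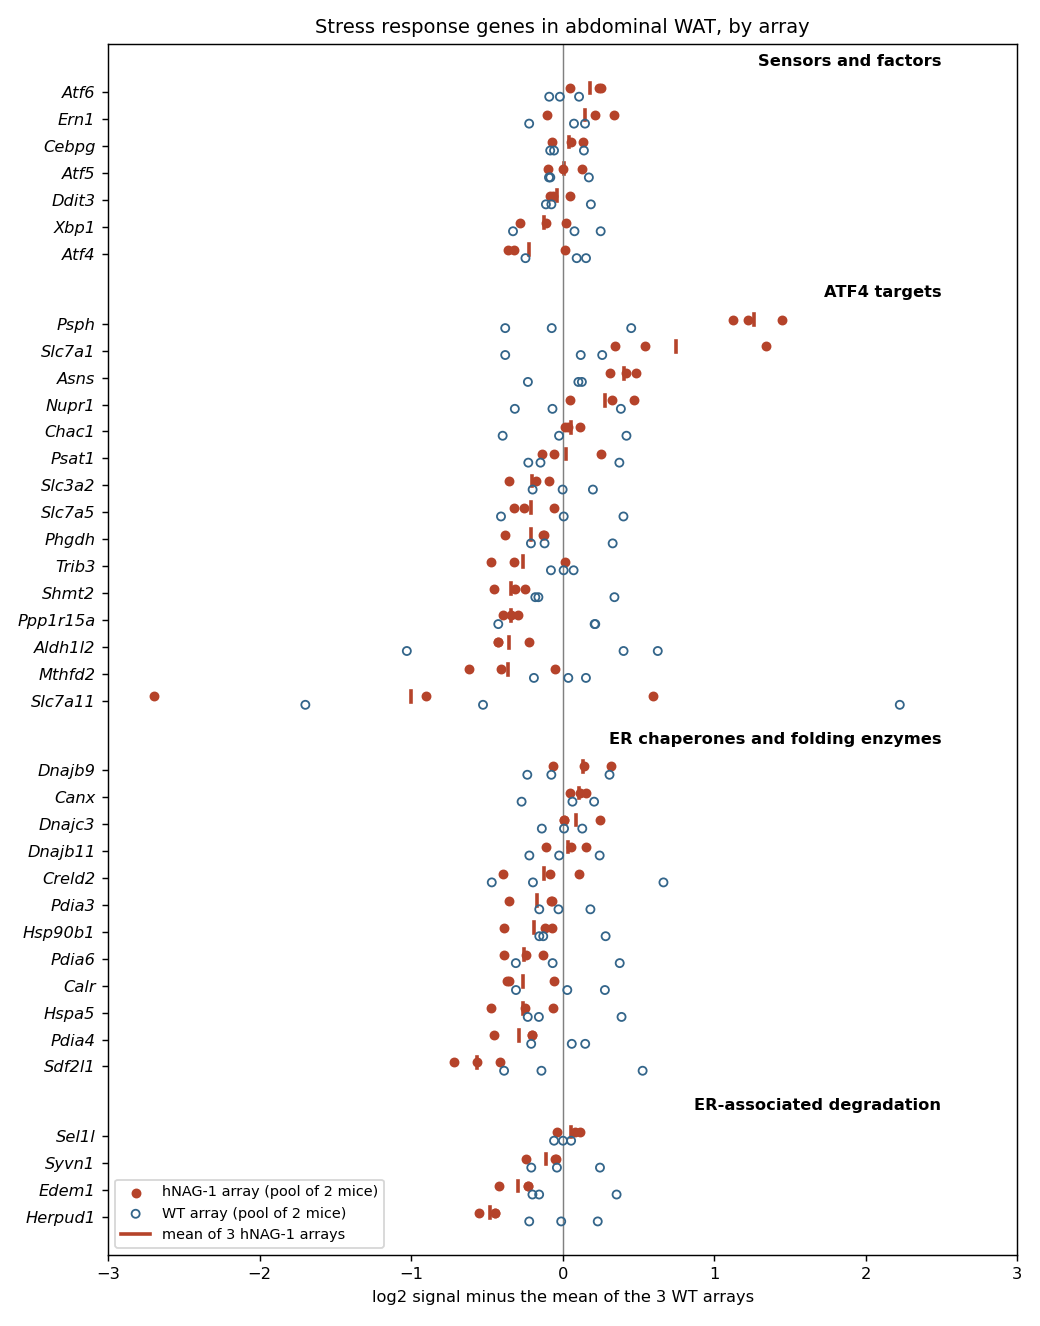
Log2 signal of each member on each array minus the mean of the 3 WT arrays (x axis), with genes down the page by role and by log2 fold change (filled, hNAG-1 arrays; open, WT arrays; bar, mean of the 3 hNAG-1 arrays). The filled points lie clear of the open ones for Psph, Asns and Slc7a1 on the right and for Herpud1, Shmt2, Sdf2l1 and Edem1 on the left, and Slc7a11 spans the widest range.

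The sensors and transcription factors showed little difference between genotypes. Of the 7, 4 had a log2 fold change above 0 (57.1%, against 59% of all genes) and 3 below. None passed an unadjusted p of 0.05, and the median was 0.011. Atf4 had a log2 signal of 0.33, 0.37 and 0.70 on the hNAG-1 arrays, against 0.84, 0.78 and 0.44 on the WT arrays. hNAG-1 replicates 1 and 2 lay below all WT arrays, while replicate 3 lay among them, and the log2 fold change of -0.22 (standard error 0.171, 95% interval -0.65 to 0.20) was within the spread (limma adjusted p = 0.62). Ddit3 encodes CHOP, a transcription factor induced by ATF4 that drives cell death under lasting stress. Its log2 signal was -0.53, -0.41 and -0.55 on the hNAG-1 arrays and -0.57, -0.54 and -0.28 on the WT arrays. The genotypes overlapped throughout, and the 95% interval of the log2 fold change, -0.35 to 0.28, bounds a difference in either direction.

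Xbp1, whose spliced form drives chaperone and secretory genes, had a log2 signal of 2.71, 2.41 and 2.58 in hNAG-1 mice, against 2.77, 2.94 and 2.36 in WT mice. The WT arrays spanned all 3 hNAG-1 values (log2 fold change -0.12, 95% interval -0.58 to 0.33), and the probe does not tell the spliced from the unspliced form in any source used here. Ern1, the gene of IRE1α, was at 0.15, and Atf6 was at 0.18 with a second probe at 0.26. Atf5, a relative of ATF4 that is also translated under stress, was at 0.011, and Cebpg, a dimerization partner of ATF4, at 0.039. With slide as a fixed block Atf5, Ern1 and Xbp1 had the opposite sign (limma adjusted p-values of 0.914 to 0.988), and with slide as a random block their signs were as reported here.

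Most of the 15 ATF4 targets lay below 0, and the 2 called at an unadjusted p were Psph and Asns. Of the 15, 6 were above 0 (40%, against 59% of all genes) and 9 below (60%, against 41%). At an unadjusted p under 0.05, 2 were called (13.3%, against 12.5% of all genes), both higher, and the median was -0.21. Psph encodes phosphoserine phosphatase, the last enzyme of serine synthesis from glycolytic intermediates, and it had the largest log2 fold change of the 38 members. Its log2 signal was 3.46, 3.69 and 3.36 on the hNAG-1 arrays, against 2.17, 1.86 and 2.69 on the WT arrays. Every hNAG-1 array was above every WT array, with the lowest hNAG-1 value 0.67 above the highest WT value. The log2 fold change was 1.26 (standard error 0.237, 95% interval 0.68 to 1.85), which is 2.40-fold, with an adjusted p of 0.194 in limma, where the unadjusted p was 0.00197.

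A dimmer second probe of Psph had a log2 fold change of 1.23. On the slide shared by both genotypes the first probe was at 1.22, and with each array left out in turn it was between 1.07 and 1.49. Its unadjusted p was under 0.05 under all 17 alternatives run for single members, and its adjusted p was lowest, at 0.0519, with an intensity trend and robust variances. The probe lies on chromosome 5 at 129003399 to 129003458 in the array design's build (mm7).

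The genes of the earlier steps of serine synthesis did not share this shift. Phgdh, which starts the pathway, had a log2 signal of 5.71 to 5.98 on the hNAG-1 arrays and 5.89 to 6.43 on the WT arrays, with a log2 fold change of -0.21 (95% interval -0.66 to 0.24), and 2 more probes of it were at -0.25 and -0.21. Psat1, the transaminase between the other two enzymes, was at 0.019 (95% interval -0.49 to 0.53). Neither interval reaches the lower bound of Psph, 0.68, and the difference between the genes was not tested.

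Asns, asparagine synthetase, is one of the best known ATF4 targets and carries the C/EBP-ATF core printed above. Its log2 signal was 4.91, 4.85 and 4.74 in hNAG-1 mice, against 4.53, 4.20 and 4.55 in WT mice. All hNAG-1 arrays were above all WT arrays, and the log2 fold change was 0.40 (standard error 0.141), or 1.32-fold, with an adjusted p of 0.354 in limma, where the unadjusted p was 0.0298. On the slide shared by both genotypes it was 0.48, at an unadjusted limma p of 0.119, and its unadjusted p was under 0.05 under 9 of the 17 alternatives. The probe lies on chromosome 6 at 7628080 to 7628139 (mm7).

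The mitochondrial folate enzymes, which use serine as a one-carbon source and are ATF4 targets, lay below 0. Shmt2, which turns serine into glycine in mitochondria, had a log2 signal of 0.16, 0.30 and 0.36 in hNAG-1 mice, against 0.45, 0.95 and 0.43 in WT mice. The genotypes did not overlap, with 0.071 between the highest hNAG-1 array and the lowest WT array, and the log2 fold change was -0.34 (limma adjusted p = 0.482). Mthfd2 was at -0.36 and Aldh1l2 at -0.36, both with overlapping arrays, and a second probe of Aldh1l2 was at 0.15.

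The amino acid transporters of the list differed in direction. Slc7a1 carries arginine, lysine and ornithine, and its log2 signal was -5.24, -4.25 and -5.05 in hNAG-1 mice, against -5.33, -5.47 and -5.97 in WT mice. The lowest hNAG-1 array was 0.087 above the highest WT array, and hNAG-1 replicate 2 stood above the others. The log2 fold change was 0.74 (standard error 0.315, limma adjusted p = 0.408), 0.35 on the slide shared by both genotypes, and -0.46 with normexp background correction. Slc7a5, a leucine transporter, was at -0.21 and its partner chain Slc3a2 at -0.20, both with overlapping arrays. Slc7a11, the cystine carrier that also pairs with the Slc3a2 chain, was dim, ranged over -7.87 to -4.58 in hNAG-1 mice and -6.88 to -2.95 in WT mice, and had a log2 fold change of -1.0 with a standard error of 1.25.

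The remaining targets had overlapping arrays and differed in direction. Trib3, a pseudokinase that binds ATF4 and CHOP, had a log2 signal of 0.41, 0.56 and 0.90 on the hNAG-1 arrays and 0.96, 0.81 and 0.89 on the WT arrays. hNAG-1 replicates 1 and 2 were below all WT arrays and replicate 3 was not, and the log2 fold change was -0.26 (limma adjusted p = 0.539), with a second probe at -0.20. Ppp1r15a, or GADD34, the phosphatase subunit that restores eIF2α, was at -0.34 (95% interval -0.84 to 0.15). Chac1, which degrades glutathione, was at 0.054, and Nupr1, a stress-induced nuclear protein, at 0.28 (95% interval -0.26 to 0.83).

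**Figure D3:**
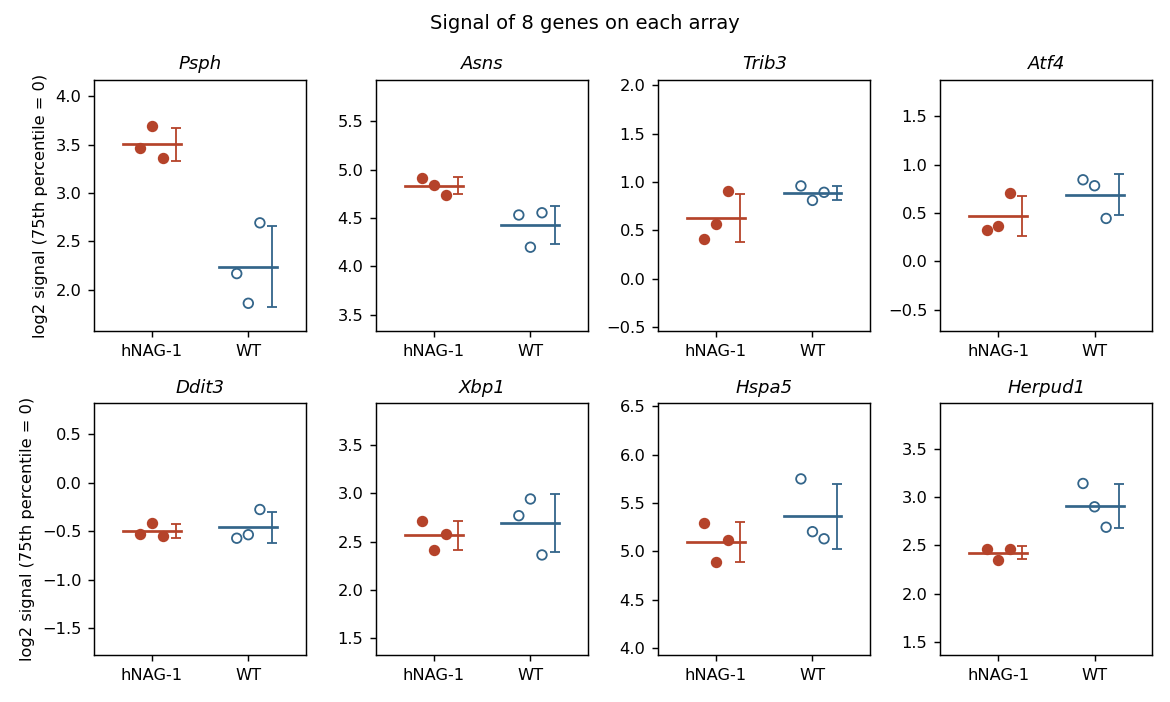
Log2 signal of 8 members on each array (y axis, 0 is the array's 75th percentile; every panel spans the same range; filled, hNAG-1; open, WT; horizontal line, mean of 3 arrays; error bar, SD). The hNAG-1 points lie above the WT points for Psph (3.36 to 3.69 against 1.86 to 2.69) and Asns, below them for Herpud1 (2.35 to 2.46 against 2.69 to 3.14), and overlap them for Ddit3, Xbp1, Atf4, Trib3 and Hspa5, with 2 of the 3 hNAG-1 points below every WT point for Atf4, Trib3 and Hspa5.

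The ER chaperones and folding enzymes lay slightly below 0, with no member past an unadjusted p of 0.05. Of the 12, 8 had a log2 fold change below 0 (66.7%, against 41% of all genes) and 4 above, and the median was -0.18. Hspa5 encodes BiP, the main Hsp70 chaperone of the ER and the usual marker of the unfolded protein response. Its log2 signal was 5.29, 4.89 and 5.11 in hNAG-1 mice, against 5.75, 5.20 and 5.13 in WT mice. WT replicate 1 stood above the rest. hNAG-1 replicates 2 and 3 lay below every WT array, while hNAG-1 replicate 1 lay among them. The log2 fold change was -0.26 (standard error 0.212, limma adjusted p = 0.634) and -0.069 without WT replicate 1. With normexp background correction it was 0.041.

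Sdf2l1, a small ER protein that works with BiP and its J-domain partners, was the chaperone with the largest shift. Its log2 signal was 0.46, 0.61 and 0.76 in hNAG-1 mice, against 1.70, 1.04 and 0.79 in WT mice. The genotypes did not overlap, but the highest hNAG-1 array and the lowest WT array were 0.026 apart, and WT replicate 1 was again the highest. The log2 fold change was -0.57 (standard error 0.256, limma adjusted p = 0.431) and -0.30 without WT replicate 1.

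The remaining chaperones had overlapping arrays. The protein disulfide isomerases Pdia4, Pdia6 and Pdia3 were at -0.29, -0.25 and -0.17, and of 3 more probes of Pdia6 all were below 0, at -0.62 to -0.097. Calr, a lectin chaperone that retains glycoproteins, was at -0.26 with a second probe at -0.39, and its membrane-bound counterpart Canx was at 0.10 with 2 more probes at -0.013 and -0.23. Hsp90b1 (GRP94) was at -0.19 with a second probe at -0.033. Creld2, an ER protein induced by stress, was at -0.12, or 0.21 without WT replicate 1. The J-domain cochaperones of BiP were at 0.13 (Dnajb9), 0.089 (Dnajc3) and 0.033 (Dnajb11). Further probes were at -0.025 and -0.022 for Dnajb9 and at 0.077, 0.030 and -0.019 for Dnajc3.

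A single WT pool stood apart in the chaperone values. WT replicate 1 had the highest signal of the 6 arrays for 10 of the 12 chaperones (83.3%), against 14.8% of all genes tested, and hNAG-1 replicate 2 had the lowest for 6 of them (50%), against 12.7% of all genes. WT replicate 1 was also the highest for 6 of the 15 ATF4 targets (40%). The same held for 1 of the 4 degradation genes and 1 of the 7 sensors and factors, and so for 18 of all 38 members (47.4%). All 12 chaperones were above their WT mean on WT replicate 1, while 10 were below it on each of WT replicates 2 and 3. Without WT replicate 1 the chaperone median was -0.057 and the ATF4 target median was -0.044, against -0.18 and -0.21 with all arrays. Relative to the median of all genes they were -0.138 and -0.125, against -0.242 and -0.274 with all arrays. The summed signal of 5 smooth muscle markers, in units of the array's 75th percentile, was 56.8 to 89.8 on the hNAG-1 arrays, against 321 on WT replicate 1, 395 on WT replicate 2 and 58.3 on WT replicate 3. That of the 10 exocrine pancreas markers with a probe was 5.43 to 6.01 on the hNAG-1 arrays, against 4.49 on WT replicate 1. For 5 skeletal muscle markers the sum was highest on these same arrays, at 208 on hNAG-1 replicate 2 and 129 on WT replicate 1, against 29.9 and 42.7 on the other hNAG-1 arrays and 66.6 and 30.4 on the other WT arrays. The part of other cells in the chaperone values was not tested.

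Of the 4 genes of ER-associated degradation, Herpud1 was lower in hNAG-1 mice at an unadjusted p under 0.05 (25%, against 4.08% of all genes). Of the 4, 3 lay below 0 (75%, against 41% of all genes), and the median was -0.20. The arrays did not overlap for Herpud1 and Edem1, both lower (50%, against 6.57% of all genes). With 4 genes these shares are coarse. Herpud1 is an ER membrane protein that recruits the ubiquitin ligase machinery and is induced by both ATF4 and the XBP1 and ATF6 branches. Its log2 signal was 2.46, 2.35 and 2.46 on the hNAG-1 arrays, against 3.14, 2.90 and 2.69 on the WT arrays. All hNAG-1 arrays were below all WT arrays and close to each other (SD 0.0633, against 0.226 for WT). The log2 fold change was -0.48 (standard error 0.147, 95% interval -0.85 to -0.12), or 0.716-fold, with an adjusted p of 0.307 in limma, where the unadjusted p was 0.0177. It was -0.45 on the slide shared by both genotypes, at an unadjusted limma p of 0.16, and -0.27 with normexp background correction, at an unadjusted limma p of 0.375. With each array left out in turn it was -0.37 to -0.59. Its unadjusted p was under 0.05 under 13 of the 17 alternatives, and not with slide as a fixed block (limma p of 0.107). The probe lies on chromosome 8 at 92984261 to 92984320 (mm7).

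Edem1, a lectin that passes misfolded glycoproteins on for degradation, had a log2 signal of 2.46, 2.66 and 2.65 in hNAG-1 mice, against 2.73, 2.68 and 3.24 in WT mice. The genotypes were 0.027 apart at their nearest arrays, and the log2 fold change was -0.29 (limma adjusted p = 0.55), with 2 more probes at -0.14 and -0.30. Syvn1, the ubiquitin ligase HRD1, was at -0.11 with a second probe at 0.17. Its adaptor Sel1l was at 0.053 with 2 more probes at -0.24 and 0.36, so that the probes of these genes disagreed in sign.

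The ATF4 targets and the ER chaperones did not separate from each other. The median of the ATF4 targets relative to the WT mean was -0.25, -0.14 and -0.056 on the hNAG-1 arrays, against 0.072, -0.12 and 0.0059 on the WT arrays. For the chaperones it was -0.094, -0.36 and -0.072 on the hNAG-1 arrays, against 0.28, -0.15 and -0.18 on the WT arrays. For both groups the genotypes overlapped, and for the chaperones 2 of the WT arrays lay below 2 of the hNAG-1 arrays. ATF4 targets minus chaperones was -0.16, 0.22 and 0.016 on the hNAG-1 arrays, against -0.21, 0.028 and 0.19 on the WT arrays. These ranges were nearly the same, and the difference between the 2 medians of log2 fold change was -0.032. That difference had the opposite sign with quantile normalization (0.030) and when Atf5, Ddit3 and Cebpg were added to the ATF4 targets (0.059), and it was -0.20 with normexp background correction and -0.16 on the slide shared by both genotypes.

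**Figure D4:**
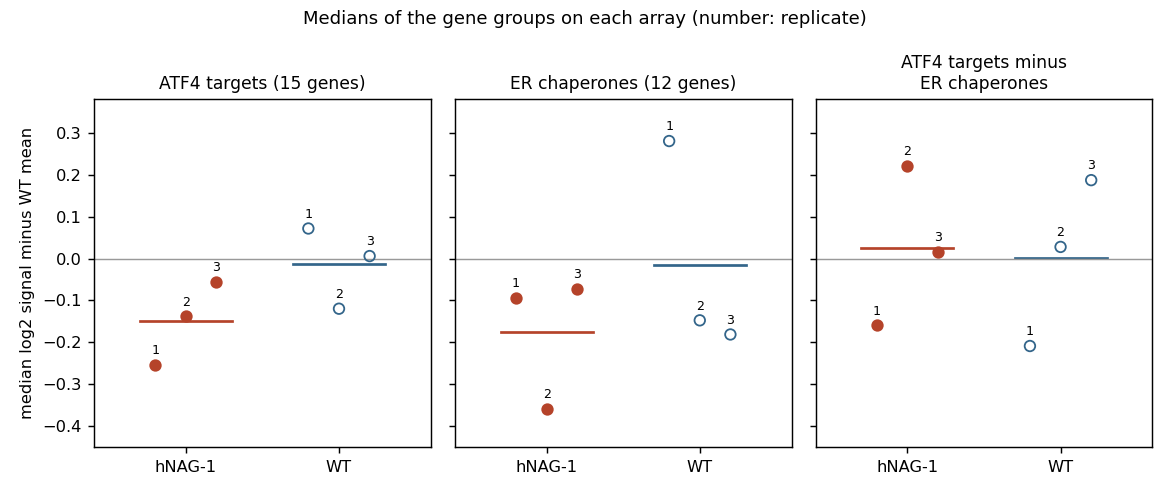
Median over the ATF4 targets, median over the ER chaperones, and their difference on each array (y axis, log2 signal minus the WT mean; the number beside a point is its replicate; filled, hNAG-1; open, WT; line, mean of 3 arrays). In the right panel the hNAG-1 arrays span -0.16 to 0.22 and the WT arrays -0.21 to 0.19.

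The wider pathway, 89 further genes in 5 lists, had 41 genes above 0 and 48 below, with 4 higher and 7 lower at an unadjusted p under 0.05 (12.4% called, against 12.5% of all genes). Other targets of ATF4 and CHOP had 22 of 26 genes below 0 (84.6%, against 41% of all genes), with a median of -0.26. At an unadjusted p under 0.05, 4 of them were lower (15.4%, against 4.08% of all genes) and none was higher. The aminoacyl-tRNA synthetases, which load tRNAs and are in large part ATF4 targets, had 10 of 12 genes above 0 (83.3%, against 59% of all genes), 2 of them at an unadjusted p under 0.05 (16.7%, against 8.45% of all genes called higher), and a median of 0.064, against 0.063 over all genes. The 13 further sensors and eIF2 genes had a median of -0.042, the 26 other genes of ER folding and translocation 0.0093, and the 12 other genes of ER-associated degradation 0.12.

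Ddit4 and Sesn2 encode proteins that restrain mTORC1 under stress, and both had the smallest p-values of their list. Ddit4 had a log2 signal of 2.82, 2.68 and 3.36 on the hNAG-1 arrays, against 4.93, 4.32 and 3.87 on the WT arrays. Sesn2 was at 2.34, 2.76 and 3.40 on the hNAG-1 arrays, against 4.58, 3.95 and 4.06 on the WT arrays. Neither gene overlapped between genotypes, with log2 fold changes of -1.42 (standard error 0.321) for Ddit4 and -1.36 (standard error 0.317) for Sesn2 and limma adjusted p-values of 0.229 and 0.235. Pdia5, a disulfide isomerase, was at -0.68 (standard error 0.157, limma adjusted p = 0.235), also without overlap. Of all genes 6.57% were lower without overlap, and Ddit4, Sesn2 and Pdia5 were picked by their p-values.

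In the other direction the smallest p-values were those of Vcp, the ATPase that pulls proteins out of the ER membrane, at 0.34, and of the alanyl- and methionyl-tRNA synthetase genes Aars at 0.33 and Mars1 at 0.26. Their adjusted p-values in limma were 0.374, 0.378 and 0.397, and the arrays of the genotypes did not overlap for any of the 3. Of all genes 13.7% were higher without overlap, and these 3 were picked by their p-values. Mouse Gdf15 had a log2 signal of -3.76, -3.34 and -3.14 in hNAG-1 mice, against -2.16, -2.31 and -3.32 in WT mice. WT replicate 3 lay among the hNAG-1 arrays, and the log2 fold change was -0.82 (standard error 0.351, limma adjusted p = 0.413). The probe is named for the mouse gene, and whether it also picks up the human transgene was not tested.

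**Figure D5:**
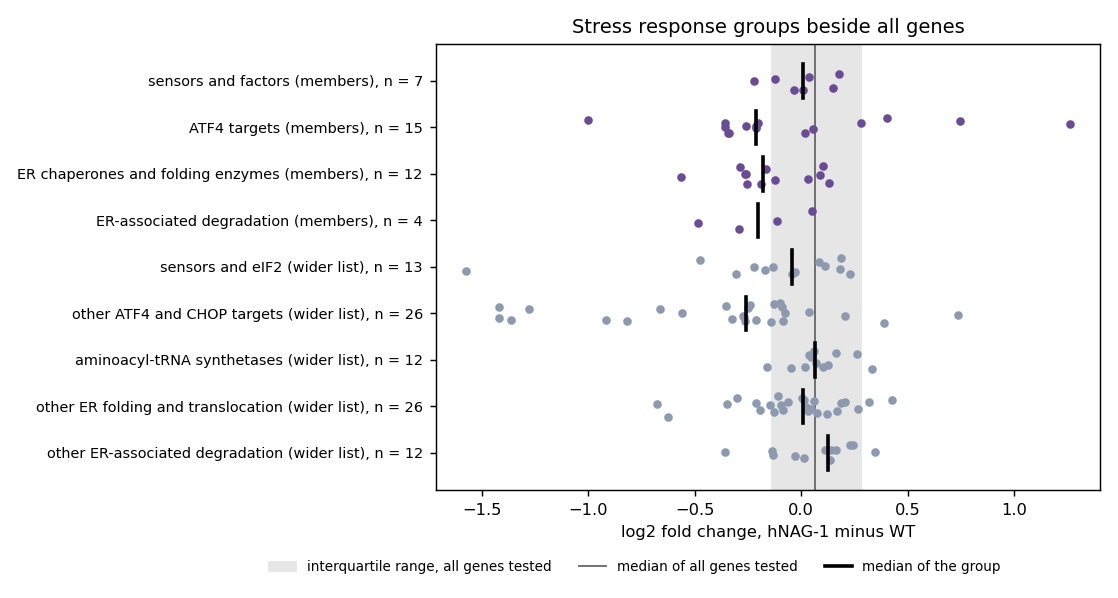
Log2 fold change (x axis, hNAG-1 minus WT) of every gene of the 4 member groups and the 5 wider lists (points; heavy bar, median of the group; grey line and band, median and interquartile range of all 21059 genes tested). The other ATF4 and CHOP targets lie mostly left of the grey line (median -0.26), while the aminoacyl-tRNA synthetases are centred near it (0.064).

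The arrays correlated at 0.965 to 0.988 (Pearson, over genes), and 71.2% to 82.0% of spots were well above background. The 75th percentile of the processed signal was 629 to 858 on the hNAG-1 arrays and 913 to 970 on the WT arrays. One slide held all WT arrays together with hNAG-1 replicate 1, and the other, scanned at another time, held hNAG-1 replicates 2 and 3. Each of the 9 adipocyte markers was detected above background throughout, 8 had a log2 fold change above 0, and their summed signal was 2117 to 2517 in hNAG-1 mice and 1735 to 2068 in WT mice, so it moved with genotype. The sum of 4 mesothelial markers also did not overlap, at 42.5 to 55.4 in hNAG-1 mice and 58.0 to 61.2 in WT mice. Of these 4, however, 2 had a log2 fold change above 0 and 2 below. Of 9 fibroblast and matrix markers 8 were below 0 in log2 fold change, as were 8 of 9 macrophage markers. At an unadjusted p under 0.05, 4 of the former (44.4%) and 2 of the latter (22.2%) were lower, against 4.08% of all genes. The summed signals of both lists overlapped between genotypes. For fibroblast and matrix markers they were 432 to 516 in hNAG-1 mice and 493 to 572 in WT mice. For macrophage markers they were 134 to 139 in hNAG-1 mice and 126 to 160 in WT mice. Plasma and B cell markers summed to 2.96 to 7.74 in hNAG-1 mice and 2.22 to 3.19 in WT mice, with the highest value on hNAG-1 replicate 2. The exocrine pancreas sum reached 29.9 on WT replicate 2. The part of these cells and of the slide in the members' differences was not tested beyond the values given.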

How the data were processed

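Total RNA of 6 pools was labelled with Cy3 and hybridised by the authors, and the deposited values are spot intensity from Agilent Feature Extraction 9.5 (the submitters' processing notes), background-subtracted within each array and not normalized between arrays. The deposited value table held the same processed signal in all 45018 rows. After removal of 1639 control spots and of spots marked as outliers, log2 intensity was set relative to the 75th percentile of its array. The array held 41174 probes. A RefSeq table (GRCm38.p6) named 22951 by accession, 6659 by symbol and 3109 by an older symbol, while 8455 retained the name printed in the files. The brightest probe stood for a gene, chosen from those that the scanner called well above background on 3 or more arrays.

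The genotypes were compared with limma 3.58.1 under R 4.3.3 (lmFit and eBayes, two-sided, Benjamini-Hochberg over 21059 genes, threshold 0.05), tested on simulated data beforehand. Gene lists were described by counts and medians, without a test. Values on every array are given for members with an unadjusted p under 0.05 or without overlap between genotypes and for Atf4, Ddit3, Xbp1, Trib3 and Hspa5. From the wider list the 3 smallest p-values in each direction and Gdf15 are named. The members and lists were chosen with earlier results of these data known. Alternatives were quantile normalization, normexp (offset 50), stricter and no filtering of dim probes, averaging over the probes of a gene, a trended robust variance, slide and replicate blocks, the slide holding both genotypes alone, the value table, other group boundaries and each array left out. The number of arrays limits the precision.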

Additional observations from a re-analysis of the deposited data

How the results depend on the processing

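Over 17 alternatives, 604 of 645 values of single members kept their direction and 41 were reversed. None passed the adjusted threshold, and 21 members were never reversed. The value table, the trended robust variance and the replicate block cannot change a log2 fold change. Nor can stricter or no filtering while the brightest probe stays the same. The share of values that kept their direction therefore does not measure how firm the directions are. No gene passed over the whole table in the other fits, but with an intensity trend and robust variances 130 genes did (107 higher, 23 lower), none of them a member. The count of members at an unadjusted p under 0.05, 3 with all arrays, was 1 with normexp and 1 on the slide that both genotypes share, with 1 hNAG-1 and 3 WT arrays. It was 1 to 7 with each array left out, being 1 without hNAG-1 replicate 2, 5 without hNAG-1 replicate 3 and 7 without WT replicate 3.

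Leaving out each array gave an ATF4 target median of -0.25 to -0.044, a chaperone median of -0.28 to -0.057 and a difference of -0.10 to 0.13. With normexp the chaperone median was 0.032 while the median of all genes was -0.19, so that relative to all genes it was 0.23, against -0.24 in the values reported and -0.065 with a fixed slide block. The ATF4 target median relative to all genes was 0.031 with normexp and -0.22 with that block, against -0.27 in the values reported. The difference of medians was 0.030 with quantile normalization and 0.059 with Atf5, Ddit3 and Cebpg added, against -0.032 in the values reported, -0.20 with normexp and -0.16 with a fixed slide block or on the shared slide alone. Of all genes at an unadjusted p under 0.05, 67.4% were higher in hNAG-1 mice, against 50.8% with a fixed slide block and 43.8% on the shared slide alone. These counts were 1780 higher and 860 lower, against 825 and 799 with the block, 571 and 734 within that slide, and 324 and 112 with normexp.

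Reversed members with quantile normalization were Atf5 (-0.13), Psat1 (-0.060), Dnajb11 (-0.038) and Canx (-0.025). With normexp they were Xbp1 (0.096), Ern1 (-0.37), Slc7a1 (-0.46), Slc3a2 (0.0086), Hspa5 (0.041), Hsp90b1 (0.038), Creld2 (0.026), Sel1l (-0.065) and Syvn1 (0.080). Averaging over probes reversed Canx (-0.045) and Syvn1 (0.028). A fixed slide block and the shared slide alone reversed Atf5 (-0.094), Xbp1 (0.020), Ern1 (-0.10) and Dnajb11 (-0.11). These settings give the same log2 fold changes by design, because the other slide held only hNAG-1 arrays. Both rest on hNAG-1 replicate 1 alone against the WT arrays. The causes of the reversals were not tested. Leaving out an array reversed 11 members, whose ranges were -0.047 to 0.097 (Atf5), -0.090 to 0.058 (Ddit3), -0.0073 to 0.11 (Cebpg), -0.29 to 0.0020 (Xbp1), -0.14 to 0.26 (Chac1), -0.097 to 0.21 (Psat1), -1.85 to 0.11 (Slc7a11), -0.077 to 0.16 (Dnajb11), -0.031 to 0.21 (Canx), -0.36 to 0.21 (Creld2) and -0.22 to 0.0094 (Syvn1).

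The labels number the replicates alike in both genotypes. The deviations of same-numbered arrays from their genotype mean correlated at 0.098, 0.51 and 0.095, against -0.42 to 0.34 for differently numbered arrays. Whether the numbers pair the arrays was not tested. With the replicate number as a block 3 members were at an unadjusted p under 0.05 (2 higher, 1 lower), 1493 genes were higher and 923 lower, and none passed the adjusted threshold. Of the 38 members 16 had further kept probes, and 8 of those 26 probes, in 6 members, had the opposite sign.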
